A study of Astyanax mexicanus with 20 samples.

Results

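Skeletal muscle of the river-dwelling surface form of the Mexican tetra, Astyanax mexicanus, was examined 14 days post injury (14 dpi) in 2 RNA-seq libraries and compared with 3 control libraries of the same form. These 5 libraries were taken by their labels from the 20 of the series. Muscle of the 14 dpi group had been injected with cardiotoxin, a snake venom protein that kills muscle fibres, and control muscle with phosphate-buffered saline (PBS). The controls carry no day, so whether time since injection was matched between the groups is unknown. Surface muscle at 1 dpi (3 libraries) and 7 dpi (2 libraries), also after cardiotoxin, and muscle of the troglobitic cave form after PBS (3 libraries) or at 14 dpi after cardiotoxin (2 libraries) were used beside them. All of these groups carry a label of free-running darkness, and another text of the series describes collection around the day. No hour, age, sex or strain is attached to a library in the labels. The labels do not tie the libraries of a group to separate fish. The spread that p-values measure is therefore the one among libraries within groups, and may be technical. It was estimated over all 20 libraries, so a standard error is not the spread of the 5 libraries compared.

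After cardiotoxin, dead fibres are cleared by macrophages, and muscle stem cells marked by pax7 genes become myoblasts that express myod1, myf5 and myog and fuse with the help of mymk (myomaker). New fibres first use embryonic or developmental isoforms of contractile proteins and replace them with adult isoforms as they mature. Most of the trunk muscle of fish is fast (white) muscle, and slow (red) fibres lie in a thin layer under the skin. In a bulk sample, fewer cells of a type and less RNA per cell cannot be told apart.

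Levels are given as scaled TPM. The authors' TPM (a share of all transcripts in a library, corrected for gene length) was divided by a factor per library, so that levels can be set beside each other between libraries and between genes. The total count of each library is unknown. The files held 27420 genes, and 16884 with at least 1 TPM in at least 2 of the 20 libraries were tested. Between 11150 and 12127 genes reached 1 TPM in the 14 dpi libraries, against 12154 to 12840 in the controls. The top transcript of each of the 5 libraries was parvalbumin pvalb4, which buffers calcium in fast fibres, with 11.9% to 15.3% of all TPM, and defining genes of muscle such as ckma (muscle creatine kinase, 29493 to 41984 scaled TPM) were abundant in each. The scaling factors were 0.595 and 0.662 at 14 dpi and 0.687, 0.839 and 0.902 in the controls. Without scaling, the median gene stood at a log2 difference of -0.23 at 14 dpi against control, and with scaling at -0.01, so differences of gene groups below are relative to that shift.

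The 2 libraries of the 14 dpi group resembled different libraries of the other surface groups. Across the 16884 genes, library 1 correlated best with control replicate 3 (Pearson's r = 0.959), and with the 7 dpi libraries at 0.915 and 0.937. Library 2 correlated best with the 7 dpi libraries (0.952 and 0.960), and with the controls at 0.944 to 0.951. The correlation of library 1 with library 2 was 0.949, inside the range of 0.947 to 0.958 among pairs of controls. Genes more than 2-fold apart numbered 1697 between the 14 dpi libraries and 1306 to 1739 between pairs of controls. These are descriptions across genes, which are not independent replicates. Library 2 lay above all controls while library 1 lay below all of them for 1015 genes (6.01% of those tested), and the reverse held for 607 genes (3.60%). Values of both libraries are therefore given for each gene below. Whether these shares exceed those of 2 like libraries was not tested.

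No gene differed between 14 dpi and control muscle at an adjusted p under 0.05 (limma, Benjamini-Hochberg adjustment over 16884 genes; 0% called). The smallest adjusted p was 0.0546. At an unadjusted p under 0.05 there were 675 higher genes (4%) and 918 lower genes (5.44%). Compared by value alone, with no test, both 14 dpi libraries lay above all 3 controls for 1567 genes (9.28%) and below all 3 for 1896 genes (11.2%). With 2 libraries against 3, an exact two-sided permutation test of 1 gene cannot give a p below 0.2. In 5 like libraries, 0.2 is also the chance that a gene lies beyond all controls, above or below. The shares of 9.28% and 11.2% alone therefore show no difference between the groups. In what follows, "above" and "below" mean that both 14 dpi libraries lay beyond all 3 controls, and the shares just given are the background for such counts. The call counts depended on single libraries: 54 genes were called without 14 dpi library 1, 25 without library 2 and 28 without control replicate 3.

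Many slow muscle genes lay below the controls at 14 dpi. Of 26 genes of slow fibre contraction that were kept, 14 lay below the controls and 0 above, against the 11.2% and 9.28% of all genes, and their median log2 difference from control was -0.85. The median was -0.62 without library 1 and -1.52 without library 2. No single member passed the adjusted threshold. Slow skeletal troponin T, tnnt1, which anchors troponin on the thin filament, was at 275, 298 and 315 scaled TPM in the controls and at 47.9 and 109 at 14 dpi, a log2 difference of -2.01 ± 0.51 (SE; adjusted p = 0.194). Both injured libraries lay far below the narrow control range, and library 1 was the lower.

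The same order of libraries was seen in the other thick and thin filament genes of slow fibres. The regulatory light chain myl2b was at 71.6, 69.8 and 59.1 in the controls and at 7.18 and 20.1 at 14 dpi (log2 difference -2.36 ± 0.64, adjusted p = 0.207). Slow myosin-binding protein C, mybpc1, was at 158, 149 and 150 and then at 23.4 and 86.8 (-1.73 ± 0.50, adjusted p = 0.257). The slow troponin I gene tnni1d was at 152, 162 and 179 and then at 26.2 and 77.8 (-1.83 ± 0.52, adjusted p = 0.257). In all 3 genes the groups did not overlap and library 1 held less than library 2. Library 1 was below library 2 in 21 of the 26 genes. The slow myosin heavy chain myh7l (16.2, 24.2 and 16.5; then 3.53 and 6.84), the troponin C gene tnnc1a (6.54, 4.63 and 3.94; then 0.807 and 1.87) and csrp3, a Z-disc LIM protein (9.87, 16.7 and 11.2; then 1.11 and 5.30), had the same pattern at lower levels. The myozenin myoz2a went the other way in part, with 152, 24.7 and 14.0 in the controls and 65.8 and 118 at 14 dpi, inside the control range.

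At 7 dpi tnnt1 was at 172 and 194, between the controls and the 14 dpi libraries. For myl2b (16.5 and 30.2) and mybpc1 (75.6 and 129) the 7 dpi libraries lay below the controls and overlapped the 14 dpi libraries. The median of the 26 genes was -0.12 for 7 dpi against control, a contrast in which 3.11% of all genes were called higher and 1.48% lower, and -1.03 for 14 against 7 dpi. In cave fish at 14 dpi against cave controls it was 0.27. tnnt1 was at 114, 434 and 212 in cave controls and at 200 and 299 in cave fish at 14 dpi, and the difference between the responses of the forms was -2.17 ± 0.72 (log2, adjusted p = 0.187). The interaction test therefore did not separate the forms for this gene.

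**Figure D1:**
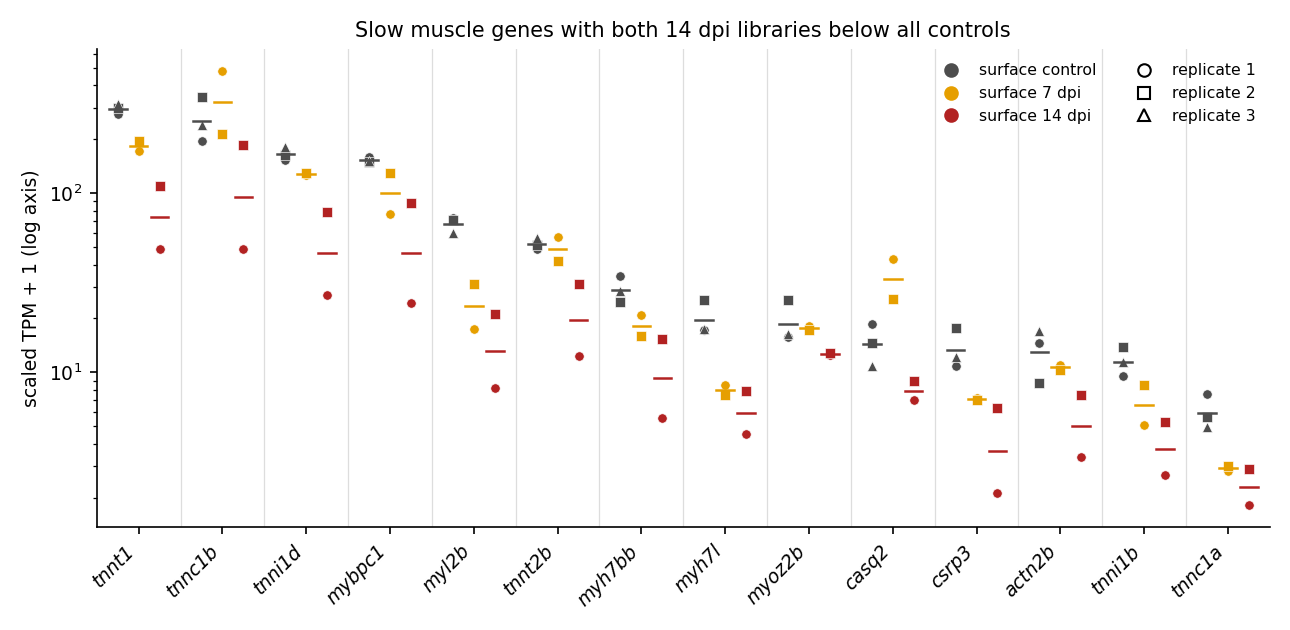
Scaled TPM + 1 on a log axis in surface controls, at 7 dpi and at 14 dpi for the 14 slow muscle genes whose 14 dpi libraries both lay below all controls, in order of control level; each point is a library (shape gives the replicate), and each bar is the mean on the log scale. The 14 dpi points lie under the control points for every gene shown, since that chose them, with library 1 below library 2, as for tnnt1 (47.9 and 109 against 275 to 315).

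Fast muscle genes were divided. Of 34 fast contraction genes, 8 lay above and 3 below the controls, and the median log2 difference was 0.28, but -0.06 with unscaled TPM and -0.07 after quantile normalization. The troponin T gene tnnt3a was at 51754, 30888 and 29866 scaled TPM in the controls and at 60570 and 59529 at 14 dpi (0.73 ± 0.68, adjusted p = 0.803). Creatine kinase ckma was at 32516, 29493 and 29501, and then at 41984 and 35580. At 7 dpi the values were 26671 and 26499 for tnnt3a and 16754 and 18381 for ckma, below every control. Both genes were thus back at or over the control range in the 14 dpi libraries.

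A few fast genes were well above the controls. The parvalbumin pvalb2 was at 1326, 579 and 936 in the controls and at 9196 and 15082 at 14 dpi (3.72 ± 0.78, adjusted p = 0.126), close to its 7 dpi values of 10039 and 9943. pvalb1 was at 14.5, 30.2 and 384 and then at 851 and 7201 (5.44 ± 1.17, adjusted p = 0.128), with 2269 and 3211 at 7 dpi. The fast myosin light chain listed as MYLPF was at 6942, 6005 and 3709 and then at 54007 and 31611 (2.94 ± 1.08, adjusted p = 0.390), with 28446 and 24899 at 7 dpi. The 14 dpi libraries did not overlap the controls in any of the 3. Both lay above the 7 dpi values for MYLPF. For pvalb1 and pvalb2 library 1 was below and library 2 above them, with the wider gap in pvalb1. Their abundant relatives differed less: pvalb4 was at 211110, 149560 and 169690 and then at 242310 and 180120, and mylpfa at 101160, 67814 and 65011 and then at 88094 and 91339. Parvalbumins and myosin light chains are families of similar genes, so reads may have been divided between copies, and the level of each copy is uncertain. The myosin heavy chain myhb, low in the controls, was at 0.684, 0.167 and 0.444 and then at 2.44 and 30.3, with library 2 the higher. On the lower side, fast myosin-binding protein C mybpc2a was at 631, 508 and 515 and then at 210 and 374 (-0.96 ± 0.27, adjusted p = 0.227).

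Among 30 genes of calcium handling and excitation-contraction coupling, 5 lay above and 4 below the controls, with a median of -0.02. Caveolin 3, cav3, a membrane scaffold of muscle fibres, was at 397, 352 and 276 and then at 442 and 631. The calcium pump gene listed as ATP2A1 was at 50.2, 76.5 and 74.1 and then at 12.2 and 39.1, whereas atp2a1l, by far the most abundant copy of this pump, was at 17403, 19075 and 19030 and then at 26677 and 19892. The copies thus lay on opposite sides of the controls.

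Genes of young fibres were among those that fell furthest between 7 and 14 dpi. In the direct comparison of these stages, which uses no control, 331 genes were called, 258 lower at 14 dpi (1.53% of those tested) and 73 higher (0.432%). With unscaled TPM, 8 were higher and 1321 lower, and the median gene stood at -0.53 there against -0.06 with scaling. The cardiac-type actin actc1a, a developmental isoform, was at 516 and 487 scaled TPM at 7 dpi and at 0.790 and 11.0 at 14 dpi (log2 difference -6.76 ± 1.27, adjusted p = 0.0147). Controls held 0.641, 0.596 and 2.41. The troponin I gene tnni2b.1 fell from 346 and 235 to 2.35 and 26.6 (-4.89 ± 0.77, adjusted p = 0.00578), against 4.89, 0.405 and 0.399 in controls. In both genes library 1 stood inside the control range and library 2 above it.

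ankrd1b, an ankyrin repeat protein of stretched or injured muscle, fell from 160 and 88.2 at 7 dpi to 1.11 and 16.8 (-4.29 ± 0.65, adjusted p = 0.00500), and both libraries were still above the controls (0.728, 0.226 and 0). The cardiac-type troponin T tnnt2c, counted also in the slow list, fell from 52.1 and 30.0 to 0 and 4.41 (-4.12 ± 0.77, adjusted p = 0.0142). The fusion protein gene mymk fell from 4.90 and 3.23 to 0.673 and 0.468 (-1.67 ± 0.23, adjusted p = 0.00301), against 0.204, 0 and 0 in controls, so a low level remained in both libraries. Adenosine kinase adkb fell from 62.7 and 53.1 to 2.02 and 16.0 (-3.03 ± 0.53, adjusted p = 0.0105), and library 1 was below all controls (17.1, 11.3 and 8.46). fosl1b, an AP-1 subunit (5.74 and 4.86, then 0 and 0.936; adjusted p = 0.00578), and the adhesion molecule ncam1a (7.70 and 5.70, then 1.19 and 2.72; adjusted p = 0.0420) fell as well. Of the 35 kept genes of the list of regenerating and embryonic fibres, 4 were called lower at 14 than at 7 dpi and 0 higher, and against controls 3 lay above and 3 below. Intermediate filament gene nes (nestin) was at 63.8 and 35.2 at 7 dpi and at 1.45 and 15.7 at 14 dpi (adjusted p = 0.0781), below and above its control range of 2.87 to 3.24.

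**Figure D2:**
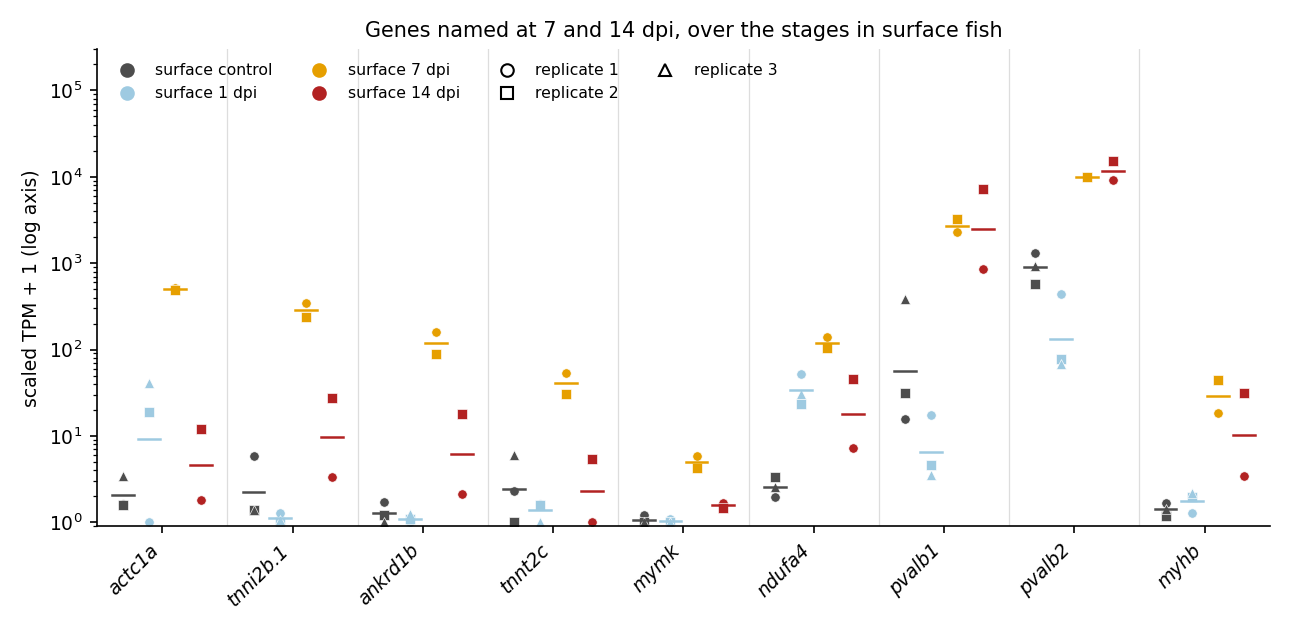
Scaled TPM + 1 on a log axis at each stage in surface fish; each point is a library (shape gives the replicate) and each bar the mean on the log scale. actc1a, tnni2b.1, ankrd1b, tnnt2c, mymk and ndufa4 peak at 7 dpi and are lower in both 14 dpi libraries, whereas pvalb2 stays near its 7 dpi level (9196 and 15082) and the 14 dpi libraries of pvalb1 lie on both sides of it (851 and 7201).

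The calls between 7 and 14 dpi moved with the libraries that entered the fit. They numbered 0 when only these 4 libraries were fitted, 35 without 14 dpi library 1, 935 without library 2 and 43 without 7 dpi replicate 1.

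Myogenic regulators mostly overlapped the controls. Of 28 genes of muscle stem cells and myogenic regulation, 3 lay above and 2 below the controls, with a median of 0.09. The stem cell gene pax7b was at 1.69, 0.393 and 0.854 in controls and at 2.03 and 1.34 at 14 dpi. myod1 was at 97.5, 253 and 89.4 and then at 75.5 and 169, and myf5 at 4.15, 1.99 and 0.943 and then at 3.19 and 3.38. myog, the differentiation factor, was at 17.7, 4.56 and 0.943 and then at 10.4 and 18.3, with 63.3 and 47.0 at 7 dpi. The controls of these genes spread widely and the groups overlapped in each. The transcriptional cofactor eya2 was below the controls at low levels (1.02, 1.51 and 0.799; then 0.168 and 0.287; -0.77 ± 0.37, adjusted p = 0.533). In the list of DNA replication and mitosis, 7 of 82 genes lay above and 3 below, with a median of 0.05, and pcna was at 13.9, 6.77 and 5.94 and then at 8.10 and 8.36. In cave fish the median of that list at 14 dpi was 1.28. Its summed level was 162, 178 and 182 scaled TPM in cave controls and 903 and 240 in cave fish at 14 dpi, so library 1 held most of it.

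Growth factor genes of the insulin-like growth factor (IGF) and myostatin group had a median of -0.27, with 5 of 36 below and 0 above the controls. Against 7 dpi, 3 of them rose. The binding protein igfbp3 rose from 2.88 and 0.604 to 18.3 and 6.70 (2.29 ± 0.53, adjusted p = 0.0406), against controls of 7.44, 4.61 and 9.89. igfbp5b rose from 5.38 and 5.74 to 11.3 and 19.9 (1.29 ± 0.27, adjusted p = 0.0278), with controls of 34.2, 18.8 and 22.5, and the growth hormone receptor ghra from 9.70 and 8.18 to 25.2 and 17.7 (1.16 ± 0.27, adjusted p = 0.0408), with controls of 30.9, 23.0 and 30.7. These 3 genes were below all controls at 7 dpi. At 14 dpi library 1 was above the control range for igfbp3, below it for igfbp5b and inside it for ghra. Library 2 was inside it for igfbp3 and igfbp5b and below it for ghra.

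With scaled TPM, genes for making ribosomes mostly lay below the controls and genes for ribosomal proteins mostly above. A list of 130 ribosome biogenesis factors, proteins of the nucleolus and its surroundings that transcribe, cut, modify and assemble ribosomal RNA, was drawn up after some of them had been seen among the lowest genes, so its counts are no independent evidence of a direction. Of the 130, 75 lay below the controls and 0 above, with a median of -0.50. The median was -0.73 with unscaled TPM and -0.46 after quantile normalization, and -0.36 and -0.64 without library 1 and library 2. Against 7 dpi, 76 of the 130 fell and 0 rose, which is 58.5% of the list and 29.5% of all 258 genes that fell. That count was 8 without 14 dpi library 1 and 0 with only the 4 libraries of these stages in the fit. The summed level of the list was 1660, 1593 and 1385 scaled TPM in the controls, 2194 and 2324 at 7 dpi, and 1028 and 1259 at 14 dpi. The 14 dpi sums were the lowest of all surface libraries.

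Fibrillarin, fbl, the methyltransferase of box C/D small nucleolar RNPs, was at 32.4, 29.6 and 20.9 in controls, at 44.2 and 50.4 at 7 dpi and at 10.4 and 13.8 at 14 dpi. It differed by -1.89 ± 0.22 from 7 dpi (adjusted p = 0.000712) and by -1.12 ± 0.20 from control (adjusted p = 0.0920). Nucleolin, ncl, was at 141, 132 and 99.2, then 189 and 135 at 7 dpi and 54.2 and 71.2 at 14 dpi, and fell between the injured stages (-1.35 ± 0.25, adjusted p = 0.0147). The small-subunit assembly factor tsr1 was at 20.8, 29.7 and 16.1, then 28.5 and 30.5, and then 6.91 and 9.54 (-1.74 ± 0.29 between the injured stages, adjusted p = 0.00725). Dyskerin, dkc1, the pseudouridine synthase of box H/ACA RNPs (21.7, 24.5 and 24.1; 35.0 and 36.6 at 7 dpi; 11.0 and 17.4 at 14 dpi), and the GTPase gene gnl3, nucleostemin (30.8, 26.1 and 17.3; 44.8 and 38.9; 9.50 and 14.4), fell likewise (adjusted p = 0.00340 and 0.00554). In each of these 5 genes both 14 dpi libraries lay below every control and every 7 dpi library. Nucleophosmin npm1a fell from 68.3 and 50.9 to 13.8 and 29.6 (adjusted p = 0.0160), but library 2 was inside its control range of 25.4 to 35.9.

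In cave fish more of the same list lay above its controls: 80 of 130 genes were above and 4 below, against 25.4% and 18.7% of all genes, 26 were called higher (background 6.22% of all genes higher and 3.87% lower), and the sums were 1141, 1067 and 1274 in cave controls and 1496 and 1710 at 14 dpi. The median difference between the responses of the forms was -0.97 over the list, against -0.08 over all genes. It was negative for 129 of the 130, but no member was called in the interaction test (fbl: -1.37 ± 0.29, adjusted p = 0.0732). The list was drawn up after members were seen low in surface muscle at 14 dpi, and this difference contains those values. Its negative sign was favoured by that choice and is no independent evidence of a difference between the forms. The cave controls began from a lower sum than the surface controls.

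Cytosolic ribosomal protein genes lay above the controls in 70 of 81 cases and below in 0, with a median of 0.39. At an unadjusted p under 0.05 (limma), 6 of the 81 were higher and 0 lower, against 4% and 5.44% of all genes. The count above was 26 after quantile normalization, with 4 below and a median of 0.17. With unscaled TPM it was 6, where 375 of all 16884 genes lay above, and the median was 0.04 against -0.23 for all genes. The acidic stalk protein gene rplp2l was at 916, 874 and 881 in controls and at 1785 and 1783 at 14 dpi (1.00 ± 0.30, adjusted p = 0.269), and rps12 was at 434, 424 and 421 and then at 692 and 711 (0.72 ± 0.31, adjusted p = 0.481). In both genes the injured libraries agreed closely and lay far outside the controls. rpl3 was at 256, 171 and 239 and then at 264 and 645, with most of the difference in library 2. The 7 dpi values were similar (1900 and 1814 for rplp2l), and the median between the injured stages was 0.05. Aminoacyl-tRNA synthetases, which charge tRNAs with amino acids and were listed after values had been seen, were divided: 3 of 20 lay above and 2 below. mars1 (methionine) was at 18, 17.1 and 8.89 and then at 3.88 and 8.2, and fell against 7 dpi (23.3 and 19.7; adjusted p = 0.0171).

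**Figure D3:**
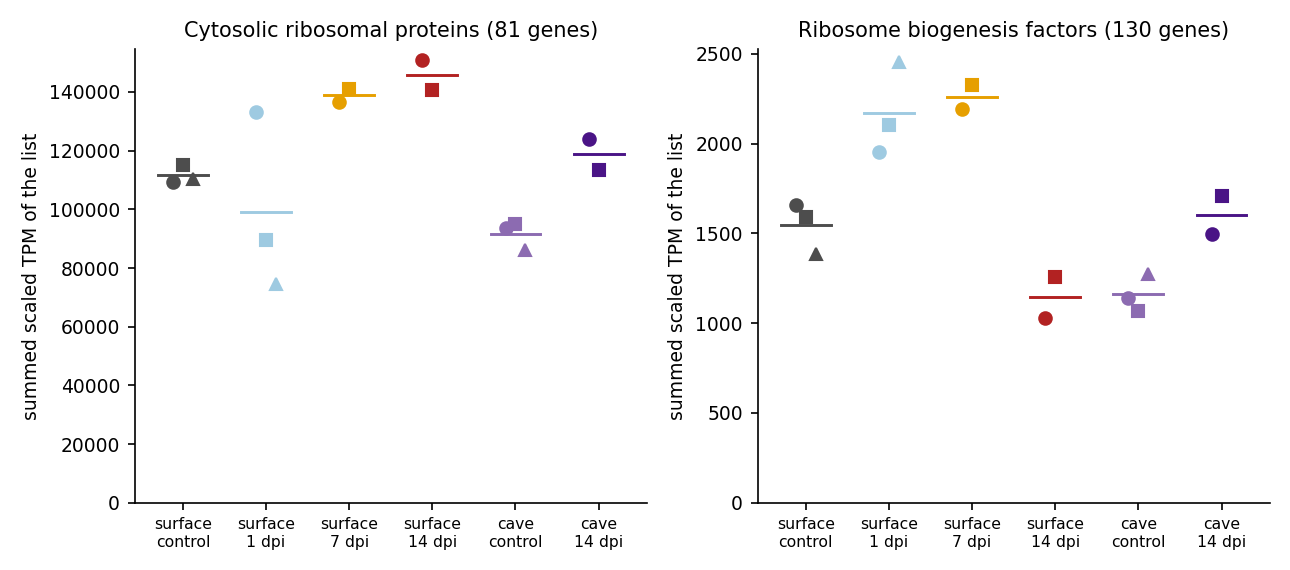
Summed scaled TPM of 81 cytosolic ribosomal protein genes (left) and 130 ribosome biogenesis genes (right) in each library of the groups shown; points are libraries (shape gives the replicate) and bars are group means. In surface fish the ribosomal protein sum at 14 dpi stays near the 7 dpi level, whereas the biogenesis sum drops to 1028 and 1259, under all controls.

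Leukocyte genes were higher than in the controls mainly in library 2. Of 57 macrophage genes, 10 lay above and 1 below, 17 were above the controls in library 2 and below them in library 1, and the median was 0.39. Against the mean of the controls the median was -0.11 in library 1 and 0.87 in library 2. The summed level was 992 to 1350 scaled TPM in controls, 1277 and 2687 at 14 dpi, and 3973 and 2130 at 7 dpi. apoeb, an apolipoprotein E of lipid-loaded macrophages, was at 26.2, 22.4 and 31.3 in controls, 38.5 and 707 at 14 dpi, and 1361 and 464 at 7 dpi. Of the other genes, gpnmb, a glycoprotein of phagocytic macrophages (1.43, 2.87 and 1.13; then 0.841 and 18.9), and apoc1 (4.78, 1.60 and 1.79; then 1.92 and 40.4) were high in library 2 alone. The lysosomal protease ctsc was above the controls in both libraries (52.7, 64.7 and 63.8; then 96.2 and 89.4; 0.62 ± 0.20, adjusted p = 0.301), and the transcription factor irf8 was at 1.89, 1.3 and 4 and then at 3.95 and 7.16. Not every macrophage marker was raised in library 2. csf1ra was at 11.6, 14.0 and 10.6 and then at 9.89 and 14.6, barely over the highest control. mrc1a was at 2.96, 1.79 and 2.96 and then at 2.77 and 2.88, inside the control range.

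Other immune lists were smaller differences of the same kind. Medians in library 1 and library 2 were -0.25 and 0.32 for 18 neutrophil genes, 0.00 and 0.51 for 28 lymphocyte genes, -0.04 and 0.45 for 15 complement genes and -0.20 and 0.28 for 38 interferon and antigen presentation genes. Neutrophil peroxidase mpx, in 1 of the 2 identifiers that carry this symbol, was near 0 throughout (0.233, 0 and 0.0555 in controls; 0 and 0.211 at 14 dpi). The cytotoxic granule gene prf1.5, a perforin, was at 1.83, 2.99 and 2.07 and then at 3.77 and 7.85, and the lymphoid transcription factor ikzf1 at 0.553, 1.43 and 0.876 and then at 2.27 and 2.49. Both were above the controls in each injured library. Complement c7a was at 7.35, 6.99 and 2.72 and then at 10.4 and 11.0, and the proteasome activator psme1 at 52.3, 58.4 and 39.1 and then at 56.6 and 145. In 53 cytokine and signalling genes 1 lay above and 4 below: socs3b, a feedback inhibitor of cytokine receptors, was at 8.2, 4.25 and 4 and then at 10.8 and 9.72, and the chemokine scavenger ackr3b at 37.9, 39.2 and 54.8 and then at 12.5 and 30.9.

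**Figure D4:**
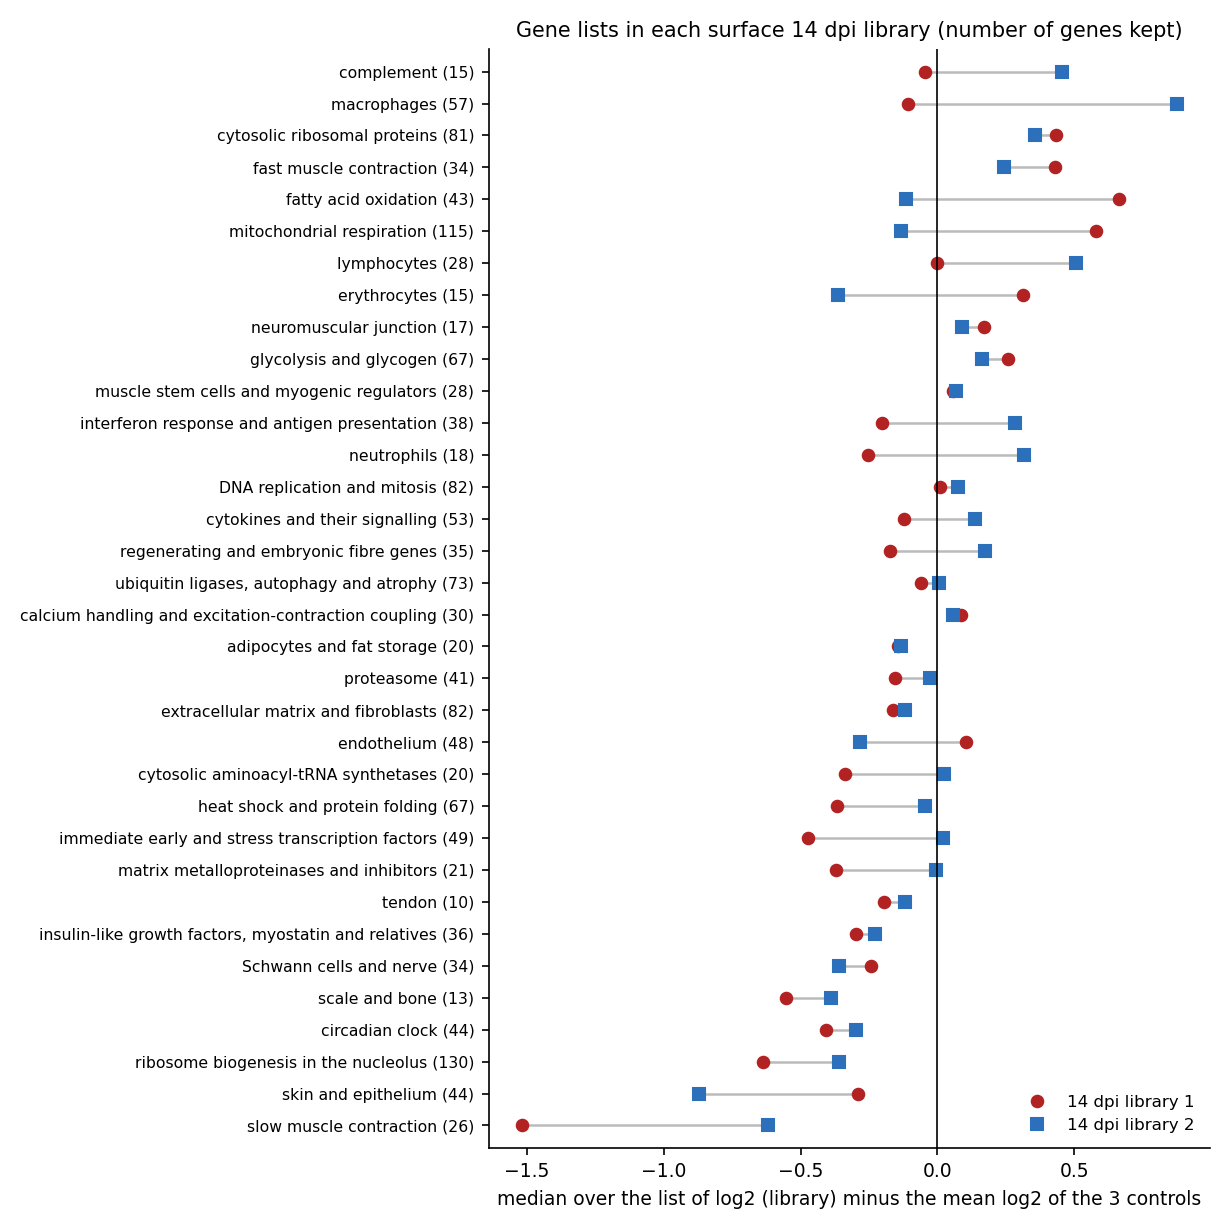
Median log2 difference from the mean of the 3 controls for each gene list in 14 dpi library 1 (red circles) and library 2 (blue squares), with the number of genes kept in brackets; lists are in order of the median for both libraries. Leukocyte lists are higher in library 2 (macrophages -0.11 and 0.87) and fatty acid oxidation and respiration in library 1 (0.66 and -0.11; 0.58 and -0.13), whereas slow muscle, skin and ribosome biogenesis are below 0 and ribosomal proteins above 0 in both.

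Genes of mitochondrial energy metabolism were higher in library 1 than in library 2. Of 115 genes of mitochondrial respiration, 5 (4.35%) lay above and 1 (0.87%) below the controls, against 9.28% and 11.2% of all genes. Their median was 0.21, with 0.58 in library 1 and -0.13 in library 2. It was -0.13 with unscaled TPM. For 43 genes of fatty acid oxidation it was 0.27 (0.66 and -0.11), and -0.05 with unscaled TPM. Single controls moved these medians too, to -0.03 and 0.04 without control replicate 1 and to 0.49 and 0.46 without control replicate 2. The summed level of respiration was 29017, 65468 and 41894 scaled TPM in controls and 65240 and 37639 at 14 dpi, both inside the control range. For fatty acid oxidation it was 2432, 5708 and 4646 and then 7423 and 3720, with library 1 above all controls. The carnitine palmitoyltransferase cpt1ab, which admits fatty acids to mitochondria, was at 18.6, 37.1 and 44.0 in controls and at 105 and 31.7 at 14 dpi, and the long-chain dehydrogenase acadvl at 127, 227 and 383 and then at 783 and 260. In both, library 1 exceeded every control and library 2 did not. Some cytochrome c oxidase subunits were above the controls in both libraries: cox7a2a (5.05, 12.5 and 6.95; then 20.2 and 23.6; 1.4 ± 0.27, adjusted p = 0.112), COX7A2 (24.4, 29.6 and 30.8; then 75.6 and 66.0) and cox6a1 (11.9, 19.6 and 12.4; then 25.1 and 36.5). ndufa4, another subunit of respiratory complexes, was at 0.976, 2.32 and 1.53, then 138 and 104 at 7 dpi and 6.19 and 44.3 at 14 dpi, and fell between the injured stages (-2.74 ± 0.66, adjusted p = 0.0447). Uncoupling protein ucp2 was at 23.6, 28.3 and 24.6 and then at 40.8 and 82.3. In cave fish at 14 dpi the medians were -0.79 for respiration and -0.86 for fatty acid oxidation.

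For 67 glycolysis and glycogen genes the median was 0.15 (-0.11 with unscaled TPM), with 8 above and 5 below. Enolase eno1a was at 1129, 969 and 764 and then at 1602 and 1454, and pyruvate kinase pkma at 65.0, 95.6 and 48.5 and then at 100 and 118. Glycogen synthase gys1 was at 245, 400 and 222 and then at 549 and 392, and the glycogen-targeting phosphatase subunit ppp1r3cb at 260, 267 and 204 and then at 137 and 148. The last of these lay below the controls while its relative ppp1r3ca lay above them.

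More genes of skin, scale and bone lay below the controls than above. Of 44 skin and epithelial genes, 19 lay below and 2 above, with a median of -0.70, which was -0.29 in library 1 and -0.87 in library 2. At an unadjusted p under 0.05 (limma), 0 of them were lower and 0 higher, against 5.44% and 4% of all genes. Of 13 scale and bone genes, 4 were lower at that threshold and 0 higher. Keratin krt4 was at 141, 126 and 60.6 in controls and at 35.6 and 55.7 at 14 dpi, whereas krt5 was at 135, 215 and 124 and then at 125 and 5.87. Library 2 thus held little krt5, and library 1 a control level. The basal epidermal factor tp63 lay above the controls (2.42, 4.17 and 5.65; then 6.37 and 12.6), as did the integrin itga6a (0.510, 0.560 and 0.122; then 0.689 and 2.2). A pair of type X collagens, proteins of bone and scale matrix, col10a1b (185, 273 and 53.5; then 27.5 and 18.5; -2.58 ± 0.65, adjusted p = 0.2) and col10a1a (44.3, 83.9 and 18.4; then 12.4 and 10.5), were below the controls. The 1 dpi libraries held skin sums of 1819 to 3524 scaled TPM, against 922 to 1340 in controls and 861 and 665 at 14 dpi, with 1032 and 1254 at 7 dpi. How much skin lay in each sample was not tested, and its part in the slow muscle values, which come from fibres close to the skin, was not tested.

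In 82 genes of extracellular matrix and fibroblasts, 17 lay below and 4 above, with a median of -0.10. Lysyl hydroxylase plod2, which modifies collagen, was at 39.4, 18.4 and 12.4 in controls and at 3.13 and 6.34 at 14 dpi (-1.99 ± 0.41, adjusted p = 0.114). Biglycan bgna was at 9.90, 9.99 and 1.85 and then at 1.71 and 0.710, lysyl oxidase loxa at 44.8, 58.1 and 56.6 and then at 28.9 and 30.5, and the metalloproteinase inhibitor TIMP3 at 56.5, 37.1 and 40.5 and then at 20.4 and 29.5. The main fibrillar collagen col1a1a overlapped (2448, 943 and 634; then 986 and 762). The summed level of the matrix list was 9771, 4826 and 3728 in the controls and 5257 and 4610 at 14 dpi, so control replicate 1 stood apart from the other 4 libraries.

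Genes of nerve and vessels were mixed. Of 34 Schwann cell and nerve genes, 8 lay below and 1 above (median -0.27). Myelin protein zero mpz was at 53.2, 65.0 and 65.9 and then at 48.8 and 27.8. The myelin gene plp1b was also below the controls in both libraries, at 2.79 and 1.65. Not every marker did so: mbpa (62.8, 73.8 and 76.0; then 70.5 and 31.7) was below in library 2 alone. The more abundant sox10 identifier (4.94, 6.37 and 5.94; then 5.92 and 4.36) was below in library 2 alone as well. The less abundant sox10 identifier was below in library 1 alone (0.235 and 0.951 at 14 dpi). The neurofilament nefma was at 14.2, 5.13 and 2.81 and then at 0.723 and 1.87. Of 48 endothelial genes, 14 lay above the controls in library 1 and below them in library 2, against 3.60% of all genes. In both libraries 6 (12.5%) lay below and 1 (2.08%) above, against 11.2% and 9.28% of all genes. pecam1, a junction protein of endothelium, was below in both libraries (25.8, 21.1 and 23.5; then 16.5 and 16.1), and the endothelial transcription factor sox18 rose against 7 dpi (2.61 and 1.96, then 6.44 and 4.36; adjusted p = 0.0351). Red cell genes also parted the libraries: the globin hbaa2, in the more abundant of 2 identifiers, was at 78.1, 60.9 and 64.1 in controls and at 208 and 40.7 at 14 dpi, and the summed red cell list at 144 to 184 in controls and at 340 and 121 at 14 dpi. The part of blood in the values of library 1 was not tested.

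Of 49 immediate early and stress transcription factor genes, 10 lay below and 1 above, with a median of -0.21, which was -0.47 in library 1 and 0.02 in library 2. The orphan nuclear receptor gene listed as NR4A1 was at 434, 143 and 442 in controls and at 22.6 and 71.2 at 14 dpi (-2.87 ± 0.67, adjusted p = 0.162), with 46.8 and 10.5 at 7 dpi. klf2a (20.8, 24.7 and 15.6; then 6.94 and 10.4) and the AP-1 subunit jund (38.9, 18.2 and 27.9; then 9.57 and 12.0) were below as well. txnipb, a thioredoxin-interacting protein that limits glucose uptake, was the exception at 115, 103 and 76.2 and then 328 and 199 (1.39 ± 0.31, adjusted p = 0.144). Of 44 circadian clock genes 7 lay below and 3 above (median -0.33), among them nfil3-5 (9.07, 20.9 and 30.8; then 3.43 and 4.65) below and per3 (25.0, 11.6 and 16.0; then 28.8 and 27.3) above. The hour of collection was not tested. Of 67 chaperone genes 10 lay below and 2 above (median -0.15): hspa4a was at 35.0, 31.1 and 39.4 and then at 14.8 and 18.9, and the constitutive chaperone hspa8 at 298, 359 and 219 and then at 410 and 550. Of 41 proteasome genes 8 lay below and 1 above (median -0.09). The list of ubiquitin ligases, autophagy and atrophy, with 73 genes, had 3 above and 2 below and a median of 0.00.

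The remaining genes with the largest differences from control, by the rule used here, had other roles or symbols that name no role. Among the lower, transferrin receptor tfr1b, which takes up iron, was at 10.4, 54.0 and 9.41 and then at 2.86 and 3.43. The acetyl-CoA synthetase acss2l was at 39.2, 23.3 and 10.9 and then at 2.93 and 4.94, the LIM protein fhl5 at 16.4, 12.5 and 8.36 and then at 0.370 and 3.82, and prg4b (lubricin) at 10.1, 8.84 and 19.2 and then at 1.53 and 2.34. mblac1 was at 38.7, 0.25 and 17.6 and then at 0.202 and 0.181, so 1 control was as low as the injured libraries. Among the higher, haptoglobin hp, a haemoglobin-binding plasma protein, was at 15.6, 20.5 and 23.7 and then at 67.2 and 47.9, and agtrap, an angiotensin receptor-associated protein, at 0.408, 0 and 2.24 and then at 2.59 and 7.67. Adjusted p for these genes ranged from 0.126 to 0.496.

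Of the 73 genes that rose between 7 and 14 dpi, both 14 dpi libraries lay above all controls for 27 and below all for 1. The ubiquitin ligase gene prkn (parkin), which marks damaged mitochondria, rose from 6.95 and 11.7 to 40.1 and 27.0 (1.76 ± 0.29, adjusted p = 0.00655), above the controls (18.6, 18.5 and 21.2). ankar rose from 0.0669 and 0.0585 to 18.5 and 8.06 (3.64 ± 0.83, adjusted p = 0.0386), against controls of 4.09, 14.0 and 10.1. The BMP receptor bmpr1aa (14.0 and 12.4, then 29.5 and 28.9; controls 29.0, 26.5 and 27.8), the thyroid hormone receptor thrb (5.55 and 6.19, then 13.0 and 9.41; controls 8.36, 10.2 and 9.72) and the glycogen phosphorylase kinase subunit phkb (46.9 and 59.9, then 149 and 91.2; controls 112, 143 and 78.8) rose too (adjusted p = 0.0149, 0.0412 and 0.0452). These 3 were chosen after their values were seen. Of the 258 genes that fell, both 14 dpi libraries lay below all controls for 121 and above for 13. Over all genes the shares were 11.2% below and 9.28% above. The counts for the risen and the fallen genes use the 14 dpi libraries that chose these genes. They are therefore no independent evidence of a difference from the controls.

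The response at 14 dpi differed between surface and cave fish for 5 genes (adjusted p under 0.05 for the difference of the responses, 3 higher in surface fish, 0.0178% of genes, and 2 lower, 0.0118%). CMC1, a factor for cytochrome c oxidase assembly, was at 45.8, 58.6 and 45.2 in surface controls and at 154 and 91.2 at 14 dpi, and at 80.9, 58.4 and 69 in cave controls and 38.8 and 31.3 in cave fish at 14 dpi. The difference of the responses was 2.21 ± 0.32 (log2, adjusted p = 0.0259), and CMC1 also rose against 7 dpi in surface fish (46.0 and 43.6; 1.39 ± 0.25, adjusted p = 0.0116). ppp1r3ca, which brings a phosphatase to glycogen and so favours its synthesis, was at 22.0, 18.9 and 23.0 and then at 53.5 and 30.9 in surface fish, and at 119, 119 and 163 and then at 13.8 and 7.17 in cave fish (4.51 ± 0.70, adjusted p = 0.0353). The injured libraries thus lay above the controls in surface fish and far below them in cave fish, from very unequal control levels. pgap2, which remodels lipid anchors of membrane proteins, went the other way at low levels: 1.97, 2.73 and 1.55 and then 0.605 and 0.815 in surface fish, and 2.1, 1.96 and 1.37 and then 4.40 and 3.76 in cave fish (-1.69 ± 0.26, adjusted p = 0.0353). The other called genes have no symbol.

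**Figure D5:**
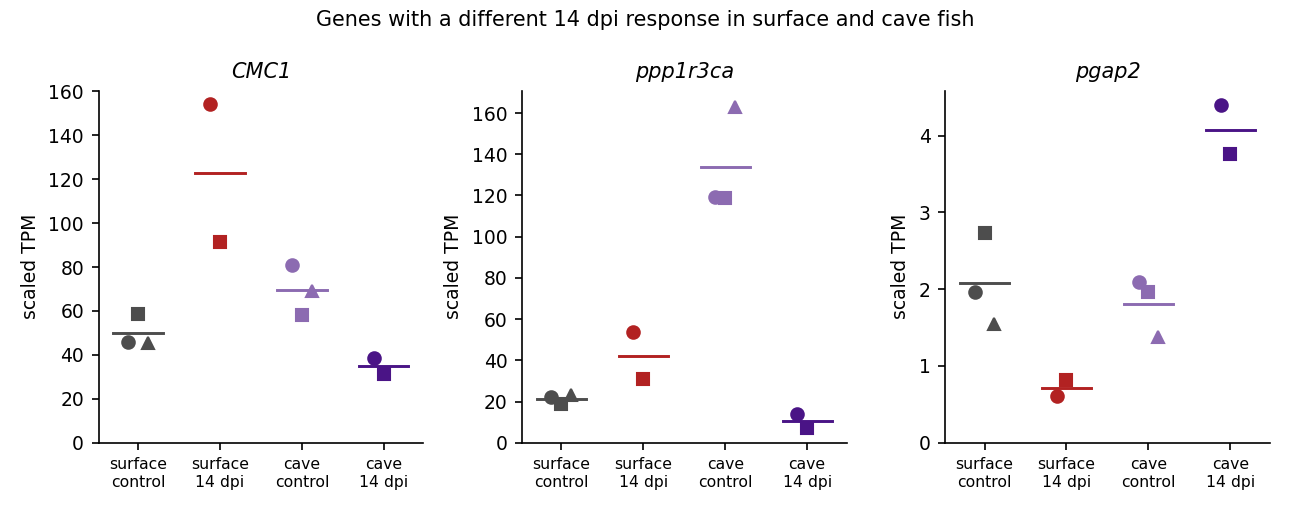
Scaled TPM of CMC1, ppp1r3ca and pgap2 in surface and cave fish, in controls and at 14 dpi; points are libraries (shape gives the replicate) and bars are group means. For CMC1 and ppp1r3ca the surface 14 dpi libraries lie above their controls and the cave ones below, and for pgap2 the reverse.

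The calls of this difference moved with single libraries. They numbered 313 without surface 14 dpi library 2, 278 without cave 14 dpi replicate 2, 183 without surface control replicate 3, 29 without cave 14 dpi replicate 1, 11 without surface 14 dpi library 1 or surface control replicate 2, 2 without surface control replicate 1, and 0 without cave control replicate 1 or 3.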

How the data were processed

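Poly(A) RNA of fish muscle was sequenced as stranded single reads, per the labels' protocols. STAR 2.7.3a and RSEM 1.3.0 are named in the submitters' processing notes, while the build and any filter are not stated there. The authors deposited one table of TPM per gene and library, per the file headers and the labels. TPM keeps no depth, so the count behind a value is unknown and no counting interval is given. It is relative, so abundant muscle transcripts change the TPM of all others. Each library was therefore divided by a median-of-ratios factor over the 9467 genes with at least 1 TPM in all 20 libraries. The test took genes reaching 1 TPM in 2 or more libraries, and log2(scaled TPM + 1) was fitted with limma 3.58.1 in R 4.3.3, with a mean for each of 8 groups, a mean-variance trend and 12 residual degrees of freedom. Fold changes on that scale understate changes of low genes. P-values were adjusted by Benjamini-Hochberg over the 16884 genes of each contrast, at a threshold of 0.05, and errors are standard errors. The same fit was run on simulated data with independent noise for each gene. It called 89% of genes changed by a log2 of 2 and 97% of those changed by 3, with 9 false calls. Differences between libraries that run through many genes were not simulated.

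Groups follow the labels. The contrasts were 14 dpi against control, 14 against 7 dpi, and the 14 dpi response of surface against that of cave fish. The surface controls enter both the first of these and the last. Genes were matched by the symbols of the table. Named genes were, among symbols held by 1 identifier, the 10 largest rises and falls without overlap at an unadjusted p under 0.05 and a mean of 5 scaled TPM, up to 3 members per list with the smallest p, the 8 largest rises at 7 dpi, the 3 largest gaps each way between the 14 dpi libraries, the 5 largest called differences each way in the other contrasts, and fixed genes. Not all genes chosen by these rules are given above. Further members and other genes were named after their values were seen. Members and lists were chosen with earlier results of these data known, and 2 lists were added after values were seen. The results were recomputed without a filter, with a pseudocount of 0.1, a mean TPM of at least 5, no scaling, quantile normalization, only the compared groups, no trend, robust moderation, a replicate block and leaving out each library.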

Additional observations from a re-analysis of the deposited data

Results flagged for a closer look

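The response at 14 dpi differed between surface and cave fish by the interaction test of limma (Benjamini-Hochberg) for 5 genes, each given as the surface response minus the cave response on the log2 scale. CMC1 differed by 2.21 (adjusted p = 0.0259), with both surface libraries above and both cave libraries below their controls. ppp1r3ca differed by 4.51 (adjusted p = 0.0353), in the same directions. pgap2 differed by -1.69 (adjusted p = 0.0353), with the surface libraries below and the cave libraries above. Of the genes without a symbol, ENSAMXG00000040589 differed by 2.19 (adjusted p = 0.0259), with 0.481, 0 and 0 scaled TPM in surface controls, 1.85 and 1.60 in surface fish at 14 dpi, 1.12, 0.785 and 0.849 in cave controls and 0 and 0 in cave fish at 14 dpi. ENSAMXG00000035259 differed by -2.30 (adjusted p = 0.0259), from 7.34 and 3.51 scaled TPM in cave fish at 14 dpi against 0 to 0.507 in the other libraries of the 4 groups. Over the alternatives the difference ranged from 1.83 to 2.58 for CMC1, from 4.08 to 4.93 for ppp1r3ca and from -2.55 to -1.53 for pgap2. The adjusted p missed 0.05 in 7 of 19 alternatives for CMC1, in 9 of 19 for ppp1r3ca and in 10 of 18 for pgap2.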

How the results depend on the processing

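Genes called between 14 dpi and control numbered 0, with 12 at a pseudocount of 0.1, 15 with no filter, 4 at a mean TPM of at least 5 and 12 with the replicate block, and 1 to 54 when a library was left out. Without scaling, after quantile normalization, with only the compared groups, without a trend and with robust moderation they numbered 0. Between 14 and 7 dpi, 331 became 1329 without scaling and 0 with only the compared groups, where 1664 had an unadjusted p under 0.05, and 35 to 935 when a library was left out. The split of 73 higher and 258 lower was 102 and 208 at a mean TPM of at least 5, and 90 and 190 with the block. For the difference between the forms, 5 became 19 with no filter, 12 at a mean TPM of at least 5, 2 without scaling, 2 after quantile normalization, 2 with only the compared groups, 0 with the block and 0 to 313 when a library was left out. Genes without overlap numbered 3463, with 1709 at a mean TPM of at least 5, where 7851 genes were tested, 4897 without scaling (375 above and 4522 below) and 5177 to 8567 when a library was left out. Leaving out a library loosens the rule for non-overlap, so that count can only stay or rise. The cause of the other shifts was not tested. Replicate numbers are shared between groups, but no label pairs the libraries. Deviations from the group means of same-numbered control and 14 dpi libraries correlated at -0.11 and -0.07. With 2 libraries at 14 dpi, their deviations mirror each other by construction, so these values cannot decide whether libraries were paired. A group left with 1 library is assumed to vary like the others. No alternative reversed the direction of a single gene that was called. Of 34 list medians against control, none of them tested, 22 had the other sign under some alternative: fast muscle ranged from -0.07 to 0.43, macrophages from -0.11 to 0.87, respiration from -0.13 to 0.58, complement from -0.04 to 0.59 and cytokines from -0.29 to 0.14. The sign held in all 14 alternatives for 12 lists, among them slow muscle (-1.52 to -0.62), skin (-1.21 to -0.29), ribosome biogenesis (-0.73 to -0.36) and ribosomal proteins (0.04 to 0.43). The skin median was below that of slow muscle at a pseudocount of 0.1 (-1.21 and -0.90) and without 14 dpi library 1 (-0.87 and -0.62).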
